A study of Mus musculus with 6 samples.

Results

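The genes that set up the mouse hindlimb, Pitx1, Tbx4 and Isl1, were followed in hindlimb buds of Pitx1 knockout and wild-type embryos. They were taken by symbol, current or former, from the annotation of the array platform. Each of the 3 genes had 1 probe (Pitx1, ILMN_2656380; Tbx4, ILMN_1244228; Isl1, ILMN_2727472), out of 25697 probes for 16593 named genes. Embryos came from matings of Pitx1+/- mice and were genotyped by PCR of tail DNA. At E12.5 there were 3 samples of genotype PITX1+/+ (wild type) and 3 of genotype PITX1-/- (knockout), all hindlimb bud of the strain labelled SV129. The labels used here give no description of the Pitx1 allele, and they do not give the number of embryos in a sample. The p-values therefore measure only the spread between these samples. Each sample was read on 1 Illumina bead array, which gives an intensity in arbitrary units, and 3 arrays per genotype limit the precision. Knockout replicate 3 stood apart from the rest along the axis of largest variance (44.2% of the total, where it lay at 22.3 and the others at -8.9 to 1.4), and values without it are given below.

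Pitx1 is a paired-type homeodomain transcription factor made in hindlimb but not forelimb mesenchyme. Tbx4 is a T-box transcription factor of the hindlimb that acts downstream of Pitx1, and Tbx5 is its forelimb counterpart. Isl1, a LIM-homeodomain factor, is needed in the hindlimb field before the bud grows out, where it works with beta-catenin, and it is also made by sensory and motor neurons. Pitx proteins bind sites of the bicoid class, whose core reads TAATCC.

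The RefSeq promoter windows of Tbx4 and Isl1 are shown because their genes act in hindlimb initiation together with Pitx1, whose protein recognises TAATCC. Each holds the 250 bases before the annotated start, read 5′ to 3′ on the gene's strand in build GRCm38.p6, at chr11:85896515-85896764 (plus strand) for Tbx4 and chr13:116309689-116309938 (minus strand) for Isl1. Capitals mark a match to TAATCC, to the T-box motif AGGTGT or to the Isl1 core CTAATG on either strand.
Tbx4: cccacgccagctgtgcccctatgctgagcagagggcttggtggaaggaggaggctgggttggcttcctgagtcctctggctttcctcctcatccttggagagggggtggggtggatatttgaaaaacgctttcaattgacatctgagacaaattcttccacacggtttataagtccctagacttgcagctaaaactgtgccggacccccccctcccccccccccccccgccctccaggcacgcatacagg
Isl1: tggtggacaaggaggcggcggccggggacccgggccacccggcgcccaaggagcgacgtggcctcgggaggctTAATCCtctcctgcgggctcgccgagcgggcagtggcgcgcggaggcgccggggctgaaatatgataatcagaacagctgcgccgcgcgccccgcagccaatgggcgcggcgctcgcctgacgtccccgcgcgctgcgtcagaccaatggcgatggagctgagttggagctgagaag
The Isl1 window held 1 TAATCC, which begins 177 bases before the start, and no match to the other motifs. In the Tbx4 window none of the 3 motifs occurred, which says nothing about sites elsewhere. TAATCC on either strand was present in 6.25% of the 32851 promoter windows of the table, AGGTGT in 11.8% and CTAATG in 6.36%. GC content was 58.4% in the Tbx4 window and 71.2% in the Isl1 window, against a median of 52.4% over all windows.

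Pitx1 was lower in every knockout sample, to 54.8% of the wild-type mean. The wild-type arrays read 154.0, 124.5 and 140.2 units and the knockout arrays 78.3, 75.2 and 76.1. The genotypes were separated by 46.3 units, and the knockout arrays lay close together. Their coefficient of variation was 2.07%, against 10.5% in wild type, and the SD of the knockout log2 levels was 0.02, smaller than for all but 1.36% of the probes tested. The mean fell from 139.6 ± 14.7 to 76.5 ± 1.6 units (SD, n = 3 each). The lowest knockout reading was 5.26 times the background threshold of 14.3 units. Neither the deleted part of the gene nor the place of the probe within the transcript is known from the sources used here, so this signal does not tell a shortened transcript from an intact one.

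On the log2 scale after background modelling with an offset of 50 units, Pitx1 fell by 0.51 (SE 0.09, 95% interval -0.70 to -0.31, adjusted p = 0.038, limma with Benjamini-Hochberg adjustment over 13720 probes). It ranked 26th by p-value among those probes, 0.153% of which were called lower and 0.0656% higher. The offset shrinks the change of dim probes. The ratio of the mean intensities, which has no offset, was 1.82-fold, or -0.87 in log2. An exact permutation test of the intensities gave p = 0.1 (two-sided), the smallest value that 3 samples against 3 allow. The call was lost without any 1 of the wild-type arrays (adjusted p = 0.30, 0.10 and 0.18 without replicates 1, 2 and 3) and without knockout replicates 2 or 3 (0.063 and 0.064), while the log2 fold change stayed between -0.56 and -0.46. It was also lost with an offset of 16 (-0.63, adjusted p = 0.074), an offset of 200 (-0.27, adjusted p = 0.34) and a floor in place of the background model (-0.86, adjusted p = 0.19). Over all probes, these settings called 8, 0 and 0, against 30 in the first fit. The counts were 3, 4 and 0 without wild-type replicates 1, 2 and 3, and 48 and 32 without knockout replicates 2 and 3.

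**Figure D1:**
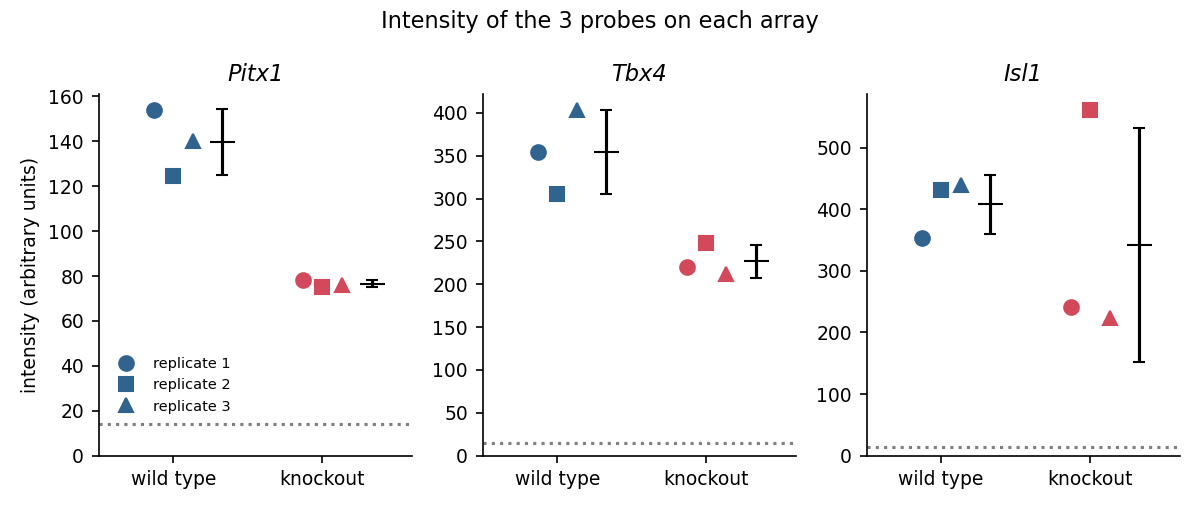
Intensity of the Pitx1, Tbx4 and Isl1 probes on each array (vertical axes in arbitrary units, each from 0). Symbols mark the replicate number, the black bars show mean ± SD of 3 arrays and the dotted line is the background threshold of 14.3 units. The genotypes are apart for Pitx1 and Tbx4, and for Isl1 knockout replicate 2, at 560.7 units, lies above all other arrays.

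Tbx4 was also lower in every knockout sample, but did not pass the threshold over all probes. Its wild-type arrays read 354.4, 305.6 and 403.1 units, and its knockout arrays 220.7, 247.9 and 211.5. All knockout values lay below all wild-type values, with a gap of 57.7 units between the nearest arrays. The same lack of overlap, with knockout lower, was found for 6.58% of the probes tested. The knockout mean was 64.0% of the wild-type mean (226.7 ± 18.9 against 354.4 ± 48.8 units, SD, n = 3 each), a ratio of 1.56-fold. In limma the log2 fold change was -0.51 (SE 0.10, 95% interval -0.73 to -0.29), with an unadjusted p of 0.00025, the 42nd smallest, and an adjusted p of 0.076. The exact permutation p was again 0.1. With 1 array left out at a time the log2 fold change ran from -0.59 to -0.43 and the adjusted p from 0.065 to 0.37.

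Isl1 did not differ between the genotypes beyond the spread of the knockout samples. Wild-type arrays read 353.1, 431.5 and 439.1 units, and knockout arrays 242.0, 560.7 and 224.1. Knockout replicates 1 and 3 lay below every wild-type array, at 59.3% and 54.9% of the wild-type mean, and knockout replicate 2 lay above every wild-type array, at 137% of it. The knockout mean was 342.3 ± 189.4 units against 407.9 ± 47.6 in wild type (SD, n = 3 each). The log2 fold change of -0.30 (SE 0.21, 95% interval -0.76 to 0.16) had an adjusted p of 0.75 in limma, and the exact permutation p was 0.7. This interval holds 0 and also holds a decrease as large as that of Tbx4.

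The Isl1 result rested on knockout replicate 2. Without that array the mean of the other knockout samples was 233.1 units, 57.1% of wild type, and the log2 fold change was -0.65 (SE 0.11, adjusted p = 0.037, limma). Without knockout replicate 1 or 3 it was -0.14 (adjusted p = 0.87) and -0.10 (adjusted p = 0.999). The SD of the knockout log2 levels of Isl1 was 0.61, larger than for 99.8% of the probes tested, while for Tbx4 it was 0.09 (larger than for 32.1%). Pitx1 and Tbx4 on knockout replicate 2 read 53.9% and 69.9% of the wild-type mean, so that array stood apart for Isl1 and not for the other two. A reading above every wild-type array in knockout replicate 2, with both other knockout arrays below every wild-type array, was found for 544 of the 13720 probes (3.97%).

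**Figure D2:**
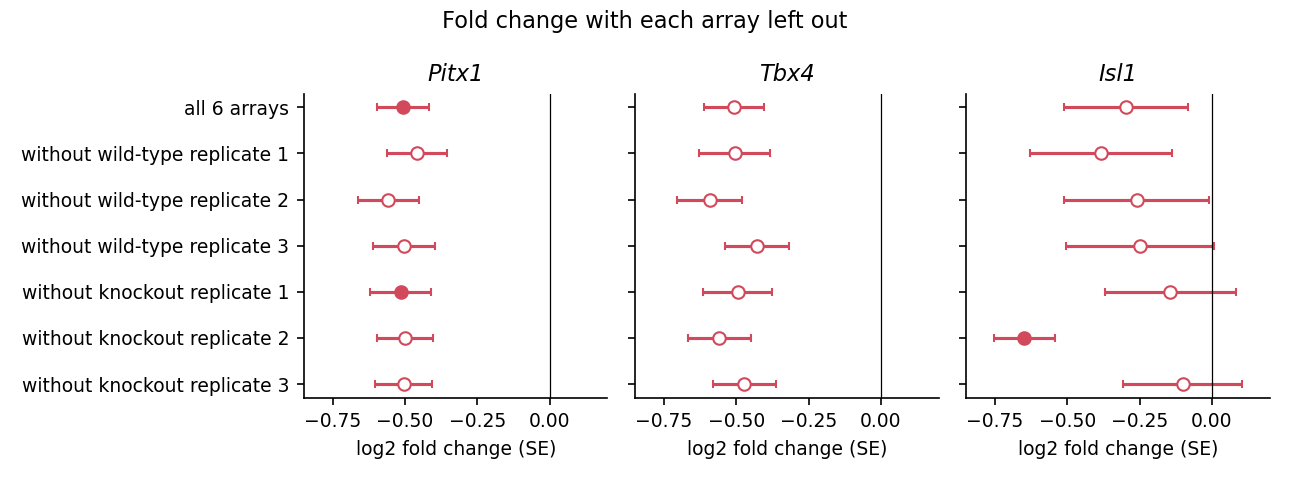
Log2 fold change, knockout minus wild type, of Pitx1, Tbx4 and Isl1 with all 6 arrays and with each array left out (horizontal axes, log2 scale; bars are limma SEs). Filled symbols have an adjusted p under 0.05. Isl1 moves from -0.30 to -0.65 without knockout replicate 2, while Pitx1 stays between -0.56 and -0.46.

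Markers of tissues that could carry Isl1 into the sample were read beside it. Of the 14 neuron markers with a probe, 3 (Stmn2, Nefm and Lhx3) were above background on at least 3 arrays. Their summed intensity was 134 to 207 units in wild type and 146 to 196 in knockout, with 176 on knockout replicate 2. Isl2 and Pou4f1, which mark motor and sensory neurons, were below background on all 6 arrays. For 13 genital, gut and urogenital markers, 5 were tested, with sums of 171 to 282 units in wild type and 327, 179 and 225 in knockout replicates 1, 2 and 3. Osr1 (90.4 to 207.3 units) and Hnf4a (37.9 to 55.4 units) were above background on all 6 arrays, and Foxf1, Barx1 and Upk1a on some of them. The other 8 genes of that list, Foxf2, Pax2 and Wt1 among them, were not above background on 3 arrays. Knockout replicate 2 had the highest level of Meis1 (519.8 units, against 275.5 to 459.7 on the other arrays), a marker of the proximal limb, and of Hoxc6 (237.6 against 141.2 to 196.0). Meis2, listed beside Meis1, was not highest there, at 848.9 units against 849.6 on wild-type replicate 2. Meis1 and Hoxc6 were singled out for this array after their values were seen. Neither their part in the Isl1 reading nor that of the tissues marked above was tested.

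The 3 genes were then compared with each other within arrays. The log2 fold changes of Pitx1 and Tbx4 differed by less than 0.01, with an exact permutation p of 1 (two-sided) and, adjusted over the 3 pairs, of 1. That near-equality belongs to the offset. With intensities floored at the background threshold and no offset, Pitx1 changed by 0.22 more than Tbx4 (difference -0.22, exact p = 0.3). Isl1 differed from Pitx1 and from Tbx4 by 0.21 in each case (differences of -0.21, exact p = 0.8 and 0.7, both 1 after adjustment), and without knockout replicate 2 both differences changed sign, to 0.15 and 0.09. Tests of this size cannot go below 0.1, so they do not show that the genes changed alike.

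**Figure D3:**
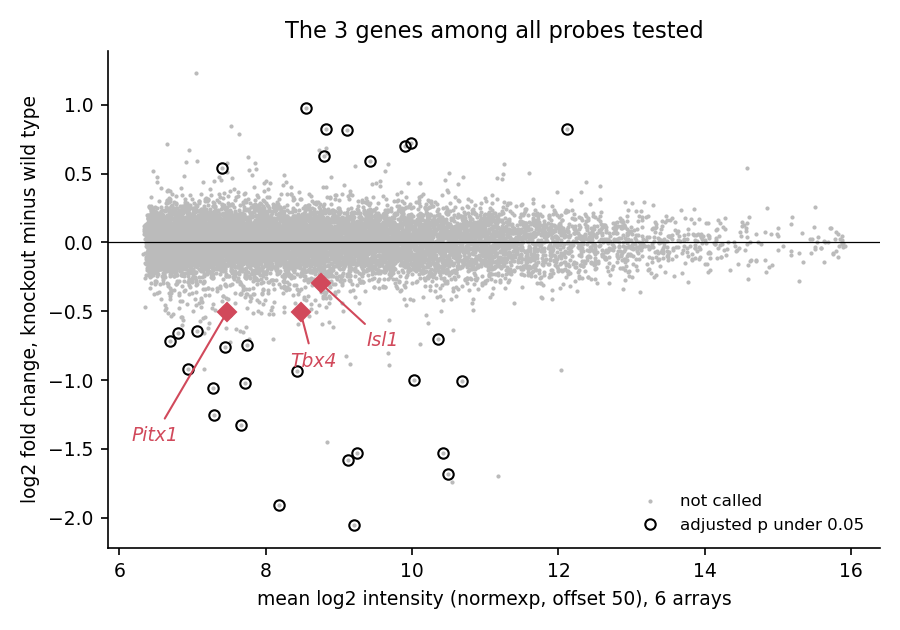
Log2 fold change (knockout minus wild type, vertical axis) against mean log2 intensity over 6 arrays (horizontal axis) for the 13720 probes tested. Black circles are the 30 probes with an adjusted p under 0.05, and red diamonds mark Pitx1 (-0.51, called), Tbx4 (-0.51, not called) and Isl1 (-0.30, not called).

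Over the 6 arrays the log2 levels of Pitx1 and Tbx4 had a Pearson r of 0.94, and between 0.92 and 0.96 with any 1 array left out. Isl1 had an r of 0.31 with Pitx1 and 0.52 with Tbx4, which were 0.87 and 0.90 without knockout replicate 2. These points share the split into 2 genotypes, so the values describe the arrays and were not tested. Among 9538 other genes, Tbx4 came 58th in likeness to Pitx1 and Pitx1 came 57th in likeness to Tbx4. The 5 genes most like Pitx1 were Cdh4, Irf3, Larp6, Mfge8 and Srpk3 (r of 0.98 to 0.99). The knockout readings of Cdh4 (9.8 to 14.1 units) were all under the background threshold, so the knockout part of its profile is not a measured level. Of these Srpk3, a muscle protein kinase, passed the test between genotypes (log2 fold change -0.66, adjusted p = 0.016, limma), with 76.1, 62.6 and 67.0 units in wild type and 24.2, 15.7 and 10.7 in knockout, the last below background. Has1, Mcm7, Cbln1, Smpdl3b and Arhgap31 were the most like Tbx4 (r of 0.98 each). All 3 knockout readings of Has1 (at most 4.9 units) lay below background, so its likeness rests there on levels that were not measured. Cbln1, which encodes a secreted cerebellin, read 1592, 1499 and 1720 units in wild type and 923, 1040 and 911 in knockout (log2 fold change -0.70, adjusted p = 0.011). For Isl1 they were Cul5, Atm, Rbm28, Ccdc43 and Fastkd5 (r of 0.988 to 0.997), none of which differed between genotypes past the threshold in limma (adjusted p of 0.72 to 0.86). Since they were chosen for their likeness to Isl1, they share its peak on knockout replicate 2, as in Cul5, a cullin, with 808.9 units there against 581.2 to 755.2 on the other arrays.

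Among other genes of the hindlimb programme, none passed in either direction. The lists hold 46 genes, of which 42 have a probe and 38 were tested, against 0.219% of all probes called in limma. At an unadjusted p under 0.05, 2 were lower and 5 were higher (4.15% and 3.9% of all probes). The median log2 fold change of the 38 was 0.10, opposite in sign to the 3 genes above and against 0.01 over all probes. Of the 38, 11 lay below 0, a smaller share than the 47.9% of all probes.

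Of 15 genes of the hindlimb field and its identity, Aldh1a2 had the smallest p-value. It makes retinoic acid and moved the same way as Pitx1 and Tbx4, with 228.0, 185.0 and 251.5 units in wild type and 159.3, 143.9 and 124.0 in knockout. In limma its log2 fold change was -0.45 (SE 0.11) and its adjusted p 0.16, and a second probe gave -0.44. The genotypes were apart for Aldh1a2, and they were apart the other way for Hoxd9 (363.9, 390.7 and 423.5 units against 529.9, 499.2 and 617.0) and Hoxd10, posterior Hox genes with log2 fold changes of 0.41 and 0.31 (adjusted p = 0.16 and 0.42). Over the 38 genes of all lists, 1 did not overlap with knockout lower, against 6.58% of all probes. With knockout higher there were 4 (Hoxd9, Hoxd10, Fgf10 and Wnt3), against 6.63% of all probes. Hoxc10, a Hox gene of the hindlimb and not the forelimb, gave 0.22 and its second probe 0.15 (adjusted p = 0.61 and 0.74). Meis1 gave 0.33 (adjusted p = 0.62), Hoxc11, close to background, gave -0.01, and Sall4, a zinc-finger factor needed for hindlimb outgrowth, gave -0.07 (adjusted p = 0.89).

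Of the 11 tested partners of Isl1 and genes of the posterior limb, Ldb1, the adaptor that LIM-homeodomain proteins bind, gave a log2 fold change of -0.24 (adjusted p = 0.61, limma), and its genotypes overlapped. Ctnnb1, which encodes beta-catenin, gave -0.01 (adjusted p = 0.99) and its second probe 0.12. Lhx2, a LIM-homeodomain gene of the limb, gave 0.25, and Grem1, a BMP antagonist, 0.19 (adjusted p = 0.56 and 0.66). Hand2, which acts after Isl1 in the posterior hindlimb, gave 0.15, and its target Shh gave 0.30 from 1.9, 32.6 and 105.1 units in knockout against 11.5, 18.7 and 24.0 in wild type (adjusted p = 0.73 and 0.75). Without knockout replicate 3 the log2 fold change of Shh was -0.03. Knockout replicate 2, the array with high Isl1, was not the highest for Hand2 or Shh.

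Of the 11 tested outgrowth genes, Fgf10, the mesenchymal signal that starts the bud, read 298.7, 316.6 and 332.3 units in wild type and 342.7, 336.7 and 334.8 in knockout. Its groups did not overlap, as for 6.63% of all probes with knockout higher, yet the log2 fold change was 0.08 (SE 0.09, adjusted p = 0.83, limma). Wnt3, a signal of the limb ectoderm, gave 0.19 (adjusted p = 0.62), and Dusp6, Bmp4, Etv4 and Lef1 gave values from -0.17 to 0.23, of which Bmp4, Etv4 and Lef1 were -0.02, -0.01 and 0.0039 without knockout replicate 3. Dusp6, at -0.17, was -0.07 without knockout replicate 1, and its other probes gave -0.02 each. Both Tbx5 probes stayed below background on all 6 arrays (at most 9.5 units), knockout included. With no forelimb sample among the arrays, it is not shown that these probes can detect Tbx5, so no conclusion is drawn. Of the other forelimb counterparts Hoxc5 was below background on all arrays, Hoxc4 was above it on 2 arrays (at most 23.2 units), and Hoxc6 gave 0.16 (adjusted p = 0.78).

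**Figure D4:**
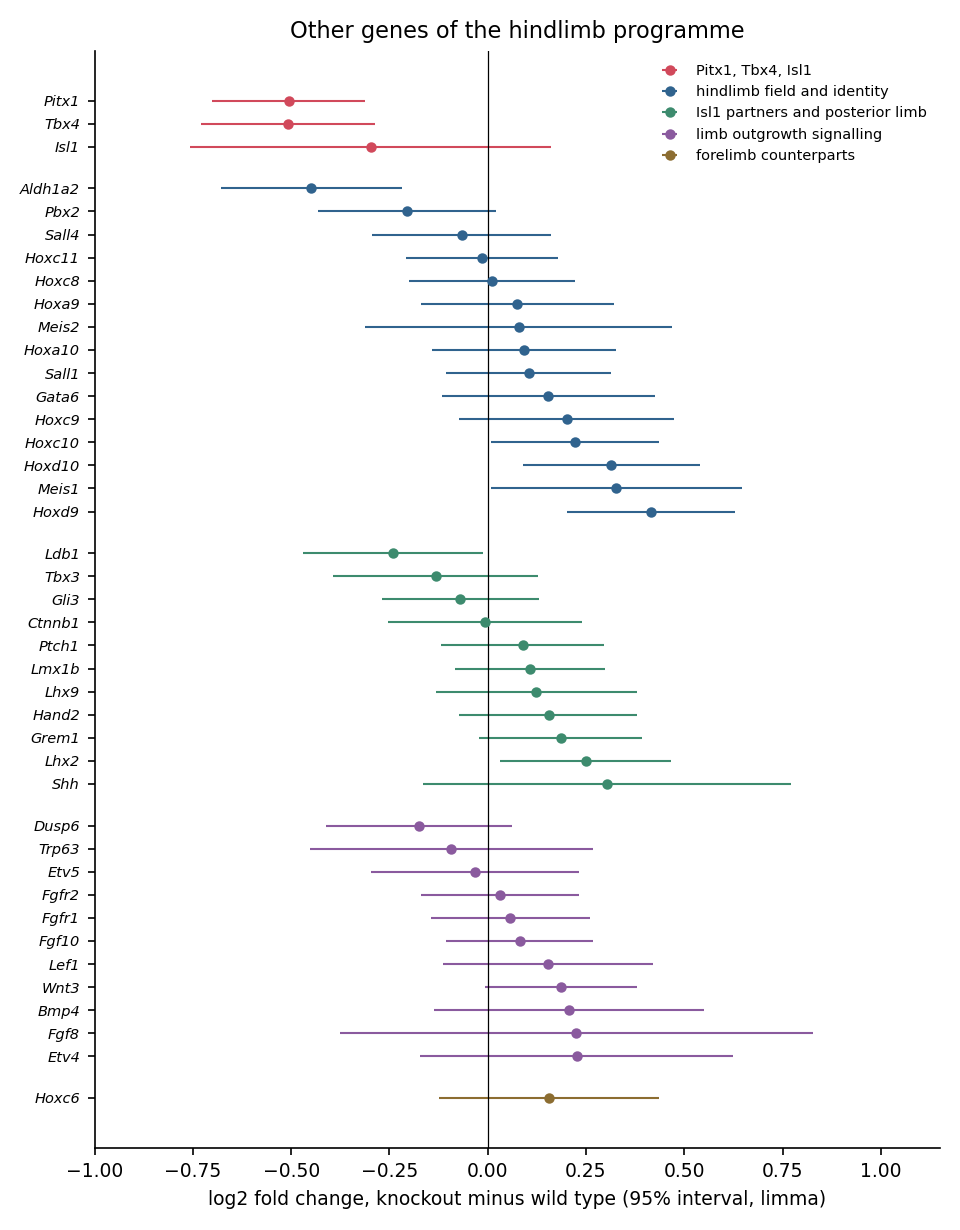
Log2 fold change (knockout minus wild type, horizontal axis, with 95% limma intervals) of Pitx1, Tbx4 and Isl1 and of the 38 other programme genes tested, coloured by list. Pitx1, Tbx4 and Aldh1a2 lie furthest below 0, at -0.51, -0.51 and -0.45, and none of the 38 passed an adjusted p of 0.05.

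The dissected tissue carried limb mesenchyme markers, with sums over 8 tested genes, mostly from Msx1, Hoxd12 and Twist1, of 10887 to 11516 units in wild type and 9527 to 11881 in knockout, lowest on knockout replicate 2. None of the 8 passed in limma, against 0.219% of all probes. Prrx1, a homeobox gene of limb mesenchyme, was the 1 gene with no overlap and knockout higher, as found for 6.63% of all probes. The brightest of its 4 tested probes gave a log2 fold change of 0.28 (unadjusted p = 0.016, adjusted p = 0.47, limma). All marker lists were chosen with earlier results of these data known, so the shares given for them describe the lists and do not test them. Skeletal muscle markers moved with genotype. Of 13 tested, 6 fell in limma, against 0.153% of all probes, and 12 did not overlap between genotypes with knockout lower, against 6.58%, and their summed intensity was 14884 to 18535 units in wild type and 8394, 6359 and 2438 in knockout replicates 1, 2 and 3. Myf5, Pax3 and Pax7 were below background throughout. Of 7 erythroid markers, 1 rose in limma (Nfe2, against 0.0656% of all probes called higher), all 7 had a higher knockout level at an unadjusted p under 0.05 (3.9% of all probes) and 6 did not overlap with knockout higher (6.63%). Their sums of 62653 to 75450 units in wild type and 83961 to 94949 in knockout consisted mostly of the globin Hba-x. Surface ectoderm markers overlapped, from 7768 to 12434 and from 9381 to 10784 units. Across the knockout arrays Pitx1 read 75.2 to 78.3 units while the muscle sum ranged from 2438 to 8394, and the part of these tissues in the Pitx1 and Tbx4 differences was not tested. In such bulk samples, fewer cells of a type cannot be told apart from less RNA per cell.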

How the data were processed

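Hindlimb bud RNA from 3 wild-type and 3 knockout samples was measured on Illumina bead arrays after Trizol extraction, DNase I treatment and biotin labelling, per the labels' protocols. The deposited table holds linear intensity values, of which 27.9% are below 0. Its columns have nearly equal quantiles (array medians of 17.76 to 17.85 units), as quantile normalization leaves them, which would hide a global shift. Scanner software, background step and normalization are not given in the sources used here. A second table with 12 value columns was not used, because its column names match no sample's labels.

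Genes were named from the platform annotation, updated through Entrez identifiers (23962 of 25697 probes). Intensities were corrected with normexp (offset 50) and converted to log2. Probes above 14.3 units (1.64 times the root mean square of the values below 0) on at least 3 arrays were tested with limma 3.58.1 (R 4.3.3), genotype as the only term, Benjamini-Hochberg adjusted over 13720 probes at 0.05. The brightest tested probe stood for a gene. Exact permutation tests used scipy 1.17.1, and figures matplotlib 3.10.9. The limma step alone was tested on simulated normal log2 values with known changes. That simulation did not cover the background correction, the filter or the permutation tests.

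The 3 genes and all lists were chosen with earlier results of these data known. Named from each list were up to 5 genes with the smallest p-value and 9 genes picked by symbol (1 of them not reported here), and for likeness the 5 genes with the highest Pearson r. Between 13535 and 13559 probes per array lay above background. No pair of arrays was identical (r of 0.989 to 0.996). Alternatives covered the offset, a floor, quantile normalization, filters, the variance model, array weights, a replicate block, averaging a gene's probes and leaving out each array.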

Additional observations from a re-analysis of the deposited data

How the results depend on the processing

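Pitx1 kept its direction in all alternatives. Its genotypes did not overlap, so leaving out an array could not have reversed it. Its call was lost with an offset of 16 (log2 fold change -0.63, adjusted p = 0.074, limma), an offset of 200 (-0.27, adjusted p = 0.34) and a floor at the background threshold (-0.86, adjusted p = 0.19), and with single arrays left out it ran from -0.56 to -0.46. Calls over all probes also fell in those settings, to 8 with the offset of 16 and 0 with the offset of 200 or the floor, against 30. In those settings the loss was not particular to Pitx1. Its call was also lost without any 1 wild-type array and without knockout replicate 2 or 3 (adjusted p = 0.063 and 0.064, limma). Over all probes, 48 and 32 were called without those knockout arrays in turn. The causes of these losses were not tested. Tbx4 passed with the replicate number as a block (-0.51, adjusted p = 0.048), where 84 probes were called against 30, and in no other setting. With 1 array left out its range was -0.59 to -0.43. Same-numbered samples correlated at 0.23, 0.17 and -0.07 after removal of group means. The knockout replicates most like wild-type replicates 1, 2 and 3 were 1, 2 and 1. So few pairs cannot settle whether the numbers pair the samples. The block changed no other call here. Isl1 ran from -0.65 to -0.10 with 1 array left out and passed only without knockout replicate 2. The count of hindlimb programme genes called was 0 in every setting.

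The Pitx1 minus Tbx4 difference reversed with an offset of 16 (-0.065) and with the floor (-0.22), and ran from -0.076 to 0.059 with 1 array left out. The differences of Pitx1 and Tbx4 from Isl1 ran from -0.40 to 0.15 and from -0.37 to 0.090. These alternatives, and those for single programme genes, were chosen after seeing the data. Among the latter, Hoxc11 reversed with the floor (0.018), and signs also changed with 1 array left out for Hoxc11 (-0.066 to 0.029), Sall4 (-0.15 to 0.039), Ctnnb1 (-0.11 to 0.080), Shh (-0.031 to 0.60), Bmp4 (-0.018 to 0.385) and Etv4 (-0.012 to 0.49). None of the 20 named programme genes passed in any setting run, including settings with few or no calls over all probes. Signal over background limits Hoxc11 and Shh, each above background on 2 of 3 knockout arrays.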
